A study of Mus musculus with 2 samples.

Results

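The Rhox family (reproductive homeobox on the X) is a group of homeobox genes that lie side by side on the mouse X chromosome. The members taken here are the 34 protein-coding genes of the GENCODE M21 annotation of mm10 whose symbol begins with Rhox and a number, of 21911 protein-coding genes in all. They span 916164 bp, chrX:37213804-38129967. The assay was DNase-seq, which reads out where the enzyme DNase I reaches the DNA of chromatin. The tissue was whole testis, taken at 14 days of age from B6CASTF1/J males. By the naming of such crosses, B6CASTF1/J mice are first-generation hybrids of a B6 mother and a castaneus-derived father, so the X chromosome of a male is that of the B6 strain, the strain of the reference genome. The study has 1 untreated group of 2 libraries, biological replicates 1 and 2. Replicate 1 is labelled as tissue of 3 males and replicate 2 as male tissue with no count of animals. Because both name the same donor entry, part of their spread may be technical. No condition was compared, so no test between groups exists, and the values below describe these libraries.

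Homeobox genes encode transcription factors that bind DNA through a homeodomain. The Rhox genes are known for selective expression in testis, epididymis, ovary and placenta, and their cluster grew in the mouse by repeated tandem duplication, chiefly of Rhox2, Rhox3 and Rhox4. The cluster is described as an alpha subcluster (Rhox1 to Rhox4), a beta subcluster (Rhox5 to Rhox9) and a gamma subcluster (Rhox10 to Rhox13). Rhox5, the founding member, is expressed in Sertoli cells, and methylation of its promoter goes with its silencing.

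The members with the strongest promoter peaks were Rhox8, Rhox11 and Rhox13, each present as a single gene. Their peak sequences are shown in the direction of each gene, from GRCm38, the build also named mm10. Capitals mark bases under a footprint (a short protected stretch within open chromatin) in both libraries. Rhox13 is on the plus strand, chrX:38121061-38121248, Rhox8 on the minus strand, chrX:37878915-37879180, and Rhox11 on the minus strand, chrX:38084321-38084520. The first 2 are shown as far as 30 bases into the annotated 5′ UTR, and that of Rhox11 lies in an intron.
Rhox13: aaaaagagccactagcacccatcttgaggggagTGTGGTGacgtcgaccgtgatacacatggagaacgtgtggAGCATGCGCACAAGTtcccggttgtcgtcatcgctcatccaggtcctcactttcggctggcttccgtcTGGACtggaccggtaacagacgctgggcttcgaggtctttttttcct
Rhox8: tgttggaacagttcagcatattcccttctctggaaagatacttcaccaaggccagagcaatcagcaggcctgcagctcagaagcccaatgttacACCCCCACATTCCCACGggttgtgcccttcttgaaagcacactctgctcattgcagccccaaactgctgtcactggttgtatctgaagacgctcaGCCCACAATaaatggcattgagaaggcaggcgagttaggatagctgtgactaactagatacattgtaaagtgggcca
Rhox11: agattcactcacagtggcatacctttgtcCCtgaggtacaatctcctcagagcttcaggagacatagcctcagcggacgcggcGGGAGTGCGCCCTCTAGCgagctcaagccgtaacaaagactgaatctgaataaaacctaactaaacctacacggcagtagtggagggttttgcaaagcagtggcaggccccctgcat

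A peak was assigned to a member when it overlapped by at least 1 bp the window of 1000 bp on each side of any of its annotated starts, and the highest such value was taken. The value is the signal the authors gave each peak. Values under 1 came in whole steps of 0.00538 in replicate 1 and 0.00377 in replicate 2 (100% of them, to within 0.05 steps), and no source used here says what a step stands for. A value of 0 means only that the longer of the 2 deposited lists of a library, of peaks with a false discovery rate (FDR) below 0.05, holds no peak there. The lists are not fully nested: 513 peaks of the shorter list (FDR below 0.001) in replicate 1 and 729 in replicate 2 overlap none of the longer. Of these, 1 in each library lay in the cluster: outside the windows with 0.210 in replicate 1, and in the window of Rhox11 with 0.344 in replicate 2. No member without a peak in the longer list of a library had one in the shorter.

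Of the 34 members, 8 had a promoter peak in both libraries, or 23.5%. The same share was 68.7% over all protein-coding genes and 60.3% over the 948 protein-coding genes of chromosome X. Another 4 members had a peak in a single library, 3 of them in replicate 1 and 1 in replicate 2, and 22 had none in either. Peaks in at least 1 library were thus found at 12 members, against 72.0% of all genes and 63.8% of X-linked genes. By library, 11 members had a peak in replicate 1, where 70.2% of all genes and 61.8% of X-linked genes had one, and 9 in replicate 2, where 70.5% and 62.3% had one (10 ± 1.4 members, SD, n = 2). The windows of the 22 members without a peak held no base with FDR below 0.05 and no footprint in either library.

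Members that were open had lower median values than open genes in general. In whole tissue, openness in few cells and weak openness in many cells cannot be told apart. The median over the 8 members open in both libraries was 0.288 in replicate 1 and 0.315 in replicate 2. Over the X-linked genes open in both libraries the medians were 1.43 and 1.53, and over all such genes 4.04 and 3.68. Of the 8 members, 5 are Rhox2 copies, whose windows had 5.29% to 43.7% of 36-base words found once in the genome. Over the X-linked genes outside the family the median of this share was 96.8%. The part of read placement in the low Rhox2 values was not tested. The other open members, Rhox8, Rhox11 and Rhox13, had 0.941 to 1.17 in replicate 1 and 0.910 to 1.49 in replicate 2. The highest member value, that of Rhox13 in replicate 2, exceeded 31.5% of the open promoters of the genome and 51.1% of those of chromosome X in that library. In replicate 1 Rhox13 exceeded 44.7% of the open promoters of chromosome X.

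**Figure D1:**
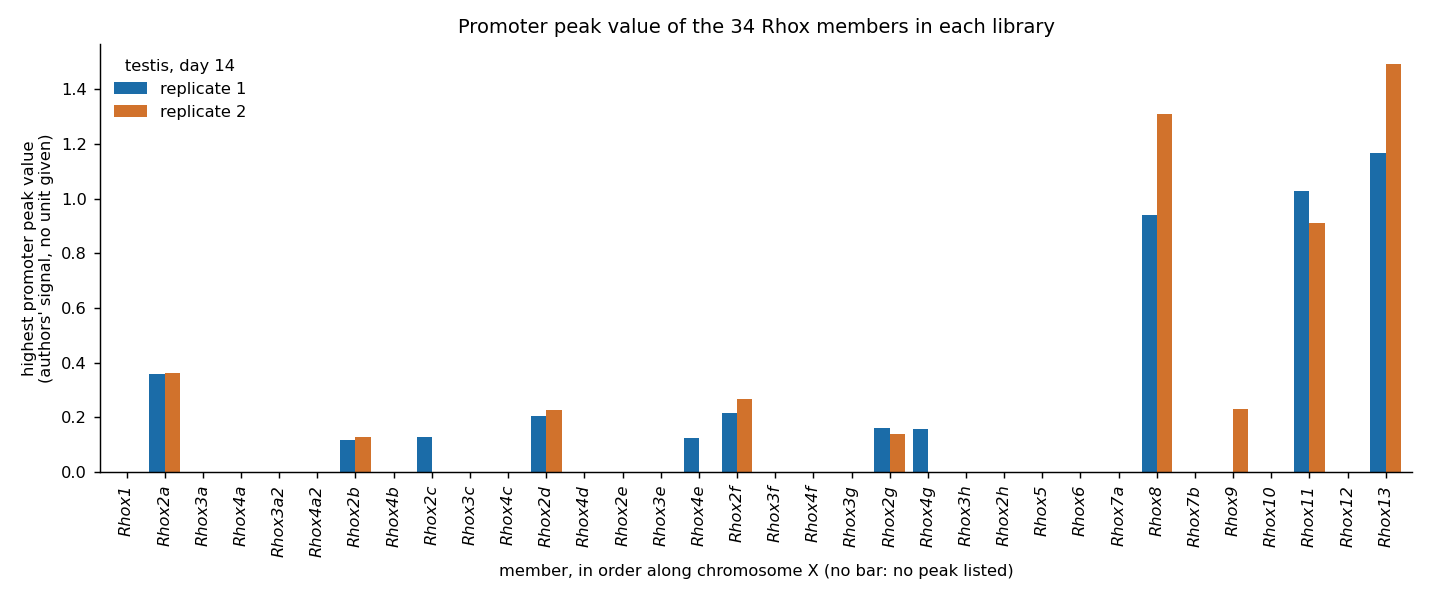
Bars give the highest value of the peaks within 1000 bp of a start (the authors' signal, no unit given) for each of the 34 members in map order, with replicate 1 and replicate 2 side by side and no bar where no peak was listed. Rhox8, Rhox11 and Rhox13 stand between 0.910 and 1.49, and every other bar is at or below 0.362.

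The gamma and beta subclusters held the 3 highest members. Rhox13, whose protein is made in germ cells from the spermatogonial stage, had 1.17 in replicate 1 and 1.49 in replicate 2 (1.33 ± 0.23, SD, n = 2). Its peak was centred 48.5 and 68.5 bp before the start and the window held 6 and 9 footprints, more than that of any other member in each library. A second peak inside Rhox13, chrX:38121561-38122000 over coding exon and intron, had 0.645 and 0.978. A further peak, 578.5 bp before the start, was listed in replicate 2 alone with 0.238. Rhox13 also had the highest ratio of observed to expected CpG of the 34 windows, 0.582, against a family median of 0.281 and a median of 0.311 over the other X-linked genes.

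Rhox8, expressed in Sertoli cells, had 0.941 in replicate 1 and 1.31 in replicate 2 (1.13 ± 0.26, SD, n = 2). Its peak was centred 106.5 and 96.5 bp before the start, reached into the 5′ UTR and held 3 footprints in each library. A further peak in a Rhox8 intron, chrX:37876841-37877155, was listed in replicate 2 alone with 0.287. Unlike Rhox13, Rhox8 had few CpGs, with an observed to expected ratio of 0.220. Rhox11 had 1.03 in replicate 1 and 0.910 in replicate 2 (0.968 ± 0.083, SD, n = 2). The Rhox11 peak lay in an intron, 720.5 and 710.5 bp after the start, so it is not a peak over the start itself, and a window of 500 bp on each side left only the peak over coding sequence, chrX:38084652-38084880, listed in replicate 1 alone with 0.274. Values of Rhox13 and Rhox8 were thus higher in replicate 2 and that of Rhox11 higher in replicate 1.

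The other single-copy members had weak peaks or none. Rhox9, known from placenta and embryonic germ cells, had 0.230 in replicate 2 alone, from a peak of 84 bp in its UTR 902 bp after the start, and none in replicate 1. Rhox6, its close relative, had none, and neither had Rhox1, Rhox5, Rhox10 or Rhox12. Rhox10 is known for its role in founding the pool of spermatogonial stem cells. A peak in a Rhox10 intron, 1625 bp after the start and outside the window, was listed in replicate 2 with 0.355 and not in replicate 1. The upstream side of Rhox9 carried a peak of 240 bp in both libraries, chrX:37903781-37904020, 2130 bp before the start, with 0.349 in replicate 1 and 0.370 in replicate 2.

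Rhox5 has an assembly gap at its start in mm10. A gap of 50000 bp, chrX:37754742-37804741, separates the start given by RefSeq, 37754608, from the GENCODE start, 37804842, and 900 of the 2010 bases of its GENCODE window are unknown. No peak, footprint or base with FDR below 0.05 was found around the GENCODE start in either library. Around the RefSeq start replicate 1 had no peak. Replicate 2 had 2, of 62 bp over the start with 0.0793 and of 120 bp with 0.0830 centred 887.5 bp before it. These were the lowest values of all cluster peaks, at 21 and 22 steps. The RefSeq promoter of Rhox5 is printed here on the plus strand, chrX:37754358-37754637 of GRCm38.p6, because its only peak over the start covers its last bases. Capitals mark the letters CTTCCGG, the reverse complement of the ETS core CCGGAAG, which begin 34 bases before the start.
Rhox5: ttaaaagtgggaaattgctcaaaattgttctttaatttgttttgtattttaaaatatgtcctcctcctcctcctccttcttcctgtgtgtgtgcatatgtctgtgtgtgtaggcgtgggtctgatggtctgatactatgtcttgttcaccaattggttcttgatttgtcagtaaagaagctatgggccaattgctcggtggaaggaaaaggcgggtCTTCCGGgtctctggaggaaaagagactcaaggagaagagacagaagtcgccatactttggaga

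The tandem copies differed by subfamily. Of the 8 Rhox2 copies, 5 were open in both libraries, 1 had a peak in replicate 1 alone and 2 had none. Of the 8 Rhox4 copies none had a peak in both, 2 had one in replicate 1 alone and 6 none. None of the 7 Rhox3 copies and neither of the 2 Rhox7 copies had a peak in either library.

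The Rhox2 values were low in each library. Rhox2a had 0.360 in replicate 1 and 0.362 in replicate 2, Rhox2f 0.215 and 0.268, and Rhox2d 0.204 and 0.226. Rhox2g had 0.161 and 0.140, and Rhox2b 0.118 and 0.128. Placed by the 5′ end of the gene, the values of Rhox2d, and that of Rhox2g in replicate 2, come from a stretch at the start. The others come from one after it. Rhox2f, Rhox2g and Rhox2c have later annotated starts too, and these were nearer to that stretch. From the nearest start, the Rhox2f peaks were centred 198.5 and 98.5 bp before it. In replicate 1 the Rhox2g peak was 196 bp and the Rhox2c peak 65.5 bp before it. The values of Rhox2a did not overlap those of the others. On the stretch after the start alone, Rhox2g had 0.161 in replicate 1 and 0.117 in replicate 2, above Rhox2b in replicate 1 and below it in replicate 2. Rhox2c had 0.129 in replicate 1 and no peak in replicate 2, and Rhox2e and Rhox2h had none. In steps, the Rhox2 values ran from 22 to 67 in replicate 1 and from 34 to 96 in replicate 2. The Rhox4 values, from the subfamily first described in embryonic stem cells, were 0.124 at Rhox4e and 0.156 at Rhox4g, in replicate 1 alone. Both peaks lay at the 5′ UTR, on short tandem repeats: the median 36-base word under them occurred 36 and 33 times in the genome. The share of words that occurred once was 1.41% at the Rhox4e peak and 45.3% at the Rhox4g peak.

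Peaks of the Rhox2 copies fell on 2 stretches that recur in each copy, apart from 2 peaks of Rhox2d in replicate 2 alone with 0.125 and 0.128. One covers the first intron and the second exon, with its centre 244.5 bp after the 5′ end of the gene in Rhox2a. The 240 bp of Rhox2a, chrX:37245101-37245340, matched all 7 other copies at 95.0% to 96.7% identity. A peak overlapped this stretch in both libraries at Rhox2a, Rhox2b, Rhox2d, Rhox2f and Rhox2g, in replicate 1 at Rhox2c and in neither at Rhox2e and Rhox2h. It is shown here on the plus strand for the strongest copy, with bases under a footprint in both libraries in capitals.
Rhox2a: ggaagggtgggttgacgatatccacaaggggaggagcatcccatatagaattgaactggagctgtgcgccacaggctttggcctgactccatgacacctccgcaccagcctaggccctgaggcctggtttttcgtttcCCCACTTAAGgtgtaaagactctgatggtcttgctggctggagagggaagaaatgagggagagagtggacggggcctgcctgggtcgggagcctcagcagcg

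The second stretch lies across or just before the start. The other 7 copies matched that of Rhox2g at 94.8% to 97.4% identity. It carried a peak in both libraries at Rhox2d alone, 0.204 in replicate 1 and 0.226 in replicate 2. At Rhox2g it had 0.140 in replicate 2 and none in replicate 1, and the other 6 copies had none. All 8 copies hold the ETS core once in this stretch. The sequences are given in the direction of the genes, with its reverse complement CTTCCGG in capitals. Rhox2d is at chrX:37493308-37493421 (plus strand), Rhox2g at chrX:37643454-37643568 (minus strand), Rhox2h at chrX:37673277-37673391 (minus strand) and Rhox2c at chrX:37453545-37453659 (plus strand). The letters of Rhox2a, Rhox2b, Rhox2e and Rhox2f are identical, and Rhox2a is shown for these 4, chrX:37244878-37244992 (plus strand).
Rhox2d: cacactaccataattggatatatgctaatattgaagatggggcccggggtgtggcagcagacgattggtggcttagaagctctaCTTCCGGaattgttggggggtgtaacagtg
Rhox2g: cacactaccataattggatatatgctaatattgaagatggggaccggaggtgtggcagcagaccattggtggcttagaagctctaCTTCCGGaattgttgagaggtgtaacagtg
Rhox2h: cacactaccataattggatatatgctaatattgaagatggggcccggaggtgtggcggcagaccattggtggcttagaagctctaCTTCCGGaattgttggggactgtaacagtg
Rhox2c: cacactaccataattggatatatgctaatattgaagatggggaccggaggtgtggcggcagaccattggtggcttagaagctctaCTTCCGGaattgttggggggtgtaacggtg
Rhox2a: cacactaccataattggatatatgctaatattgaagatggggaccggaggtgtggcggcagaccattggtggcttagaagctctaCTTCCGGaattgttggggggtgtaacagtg

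No source used here says how the authors placed reads that match several copies, so the share of words that occur once in the genome was counted for each stretch. Of the 36-base words of the start stretch, 64.6% occurred once at Rhox2d, 63.7% at Rhox2g and 53.8% at Rhox2h. At Rhox2c it was 5.00%, and at Rhox2a, Rhox2b, Rhox2e and Rhox2f no word occurred once. The 2 copies with a peak on this stretch were therefore among the 3 with mostly unique words, and none of the 5 copies with repeated words had one. For the intron and exon stretch, the 5 copies with a peak in both libraries had 23.9% to 45.6% of unique words. Rhox2c and Rhox2e had 0.488%, with a peak in replicate 1 and no peak, and Rhox2h had 33.2% and no peak. With words of 75 bases those 5 copies had 69.9% to 86.2%, Rhox2h 54.2%, and Rhox2c and Rhox2e 30.7%. On the start stretch the 75-base shares were 100% at Rhox2d, Rhox2g and Rhox2h, 9.76% at Rhox2c and 0 at Rhox2a, Rhox2b, Rhox2e and Rhox2f. Absence of a peak at a copy with few unique words and absence of open chromatin there cannot be told apart in these files.

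**Figure D2:**
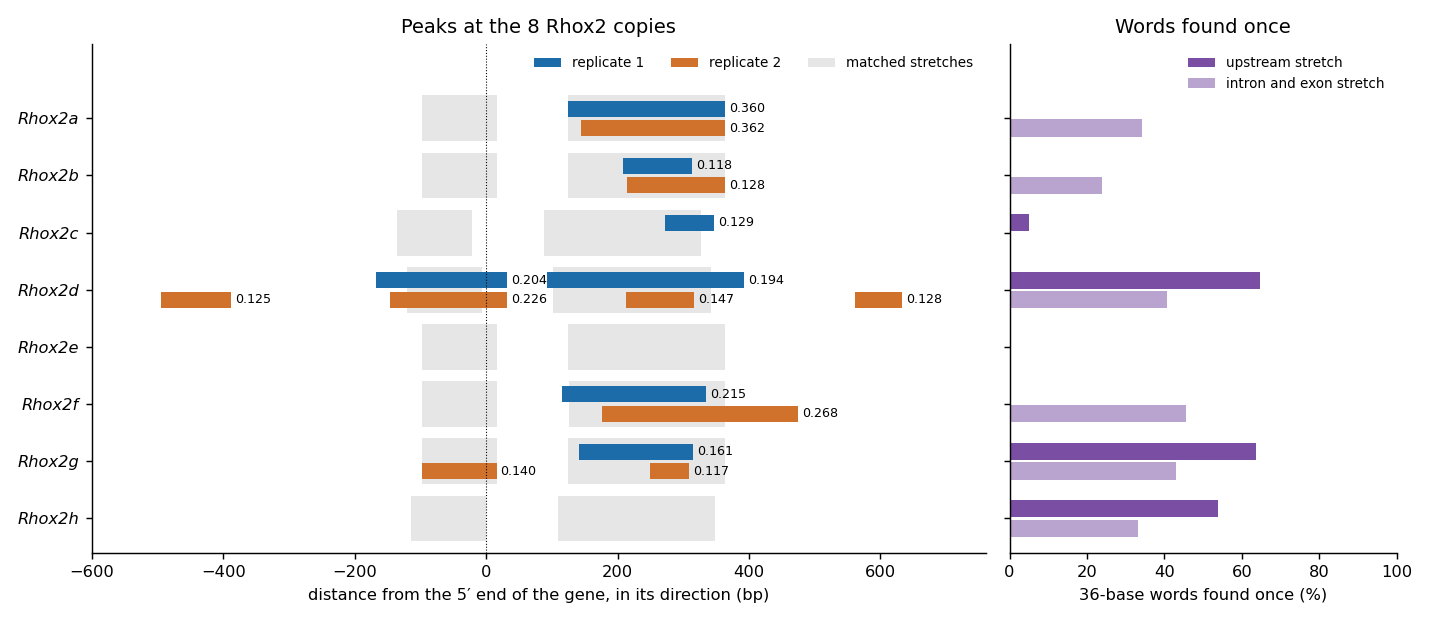
Left, peaks of each library at the 8 Rhox2 copies by distance from the 5′ end of the gene in bp, labelled with their values, over grey boxes for the 2 stretches that match between copies. Right, the share of 36-base words of each stretch found once in the genome, which is 0 at Rhox2a, Rhox2b, Rhox2e and Rhox2f for the upstream stretch and above 50% at Rhox2d, Rhox2g and Rhox2h.

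The same count over the promoter windows separated the copied from the single members. A median of 24.3% of the 36-base words of a member's windows occurred once, against 96.8% over the 914 other X-linked genes. For the 23 Rhox2, Rhox3 and Rhox4 copies the median was 13.0% and every copy was below 50%, and Rhox3a2 had no unique word. For the 9 single-copy members it was 90.6%, from 65.2% to 100%. With fewer than 25% unique words, 2 of 17 members had a peak in both libraries (11.8%), against 12.5% of the other X-linked genes in that band. Between 25% and 50% the shares were 37.5% (3 of 8) and 39.4%. Between 50% and 75% they were 33.3% (1 of 3, Rhox8, at 74.2%) and 52.5%. Above 75% they were 33.3% (2 of 6) and 73.3%. These 6 include Rhox5, whose share covers only the known bases of its window.

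**Figure D3:**
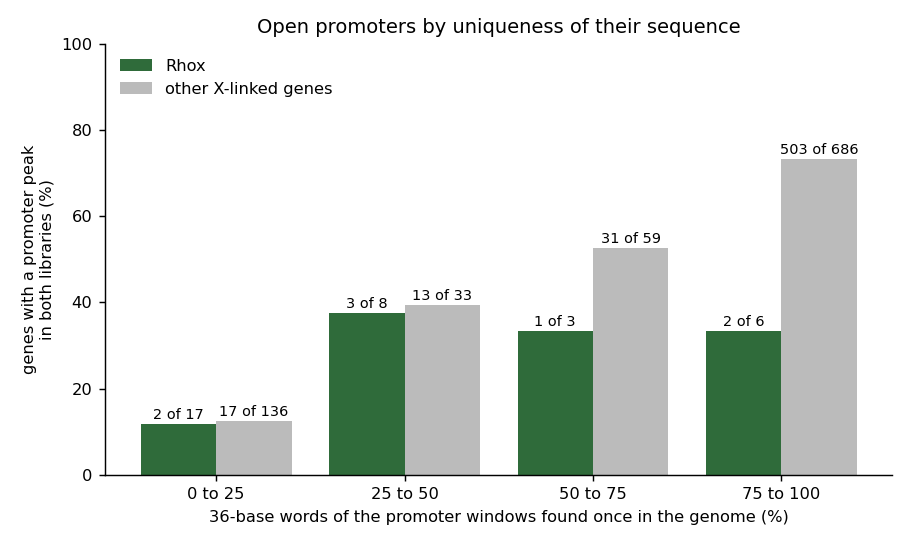
Bars give the percentage of genes with a promoter peak in both libraries, for Rhox members and the other X-linked genes, in bands of the share of 36-base words of the windows found once in the genome, with counts above the bars. The 2 bars are close in the 2 lower bands (11.8% and 12.5%, 37.5% and 39.4%) and apart in the 2 upper bands (33.3% and 52.5%, 33.3% and 73.3%), which hold 3 and 6 members.

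Peaks of the cluster were not confined to the windows. The cluster held 29 peaks in replicate 1 and 35 in replicate 2, of which 15 and 20 lay outside all promoter windows (17.5 ± 3.5, SD, n = 2). Of the peaks, 20 in each library overlapped one of the other library, 69.0% and 57.1%, against 78.9% and 67.5% of all peaks of chromosome X. Per Mb of known sequence the cluster held 40.5 and 48.9 peaks, the whole of chromosome X 19.6 and 23.0, and the median autosome 41.5 and 49.2. The median value of the cluster peaks was 0.285 and 0.242, against 0.317 and 0.298 on chromosome X. Peak density was 30.6 and 33.4 per Mb over the alpha members, 41.6 and 83.2 over the beta members and 78.7 and 94.5 over the gamma members. These rest on few peaks: 11 and 12 in 0.359 Mb, 4 and 8 in 0.096 Mb, and 5 and 6 in 0.063 Mb. The intervals between the subclusters are left out.

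**Figure D4:**
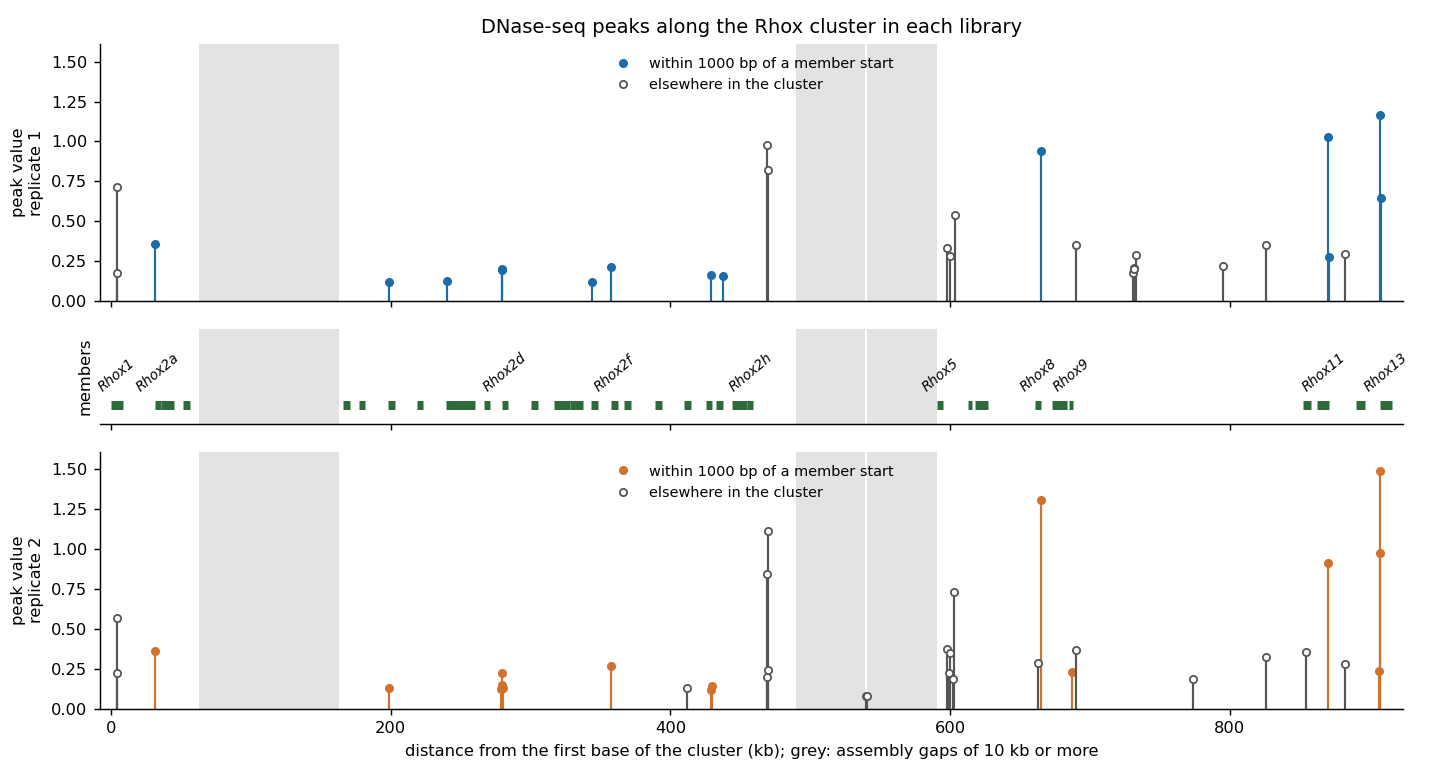
Stems give each peak's value (the authors' signal, no unit given) by distance from the first base of the cluster in kb, replicate 1 above and replicate 2 below the members (green), with assembly gaps of 10 kb or more in grey. Filled points lie within 1000 bp of a member start, and open points elsewhere, the highest of them at the Rhox2-ps pseudogene (0.979 and 0.846, 0.823 and 1.11).

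The strongest peaks outside the windows lay at the pseudogene Rhox2-ps, an unprocessed copy that GENCODE does not class as coding. One, chrX:37683121-37683340 over exon and intron of the pseudogene, had 0.979 in replicate 1 and 0.846 in replicate 2. The other, chrX:37683401-37683640 at its 5′ end, had 0.823 and 1.11. Each held 4 footprints in both libraries. Both were higher than every Rhox2 gene, and their words were 100% and 84.4% unique. Rhox1 had no peak at its start but 2 inside the gene, over coding exons and introns. That at chrX:37218221-37218420, 3938 bp after the start, had 0.715 in replicate 1 and 0.570 in replicate 2, and that at chrX:37217801-37218026 had 0.177 and 0.226.

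The 5′ peak of Rhox2-ps and the stronger Rhox1 peak share sequence. A run of 94 bases of the pseudogene peak matched Rhox1 at 97.9% identity. Both peaks hold the ETS core at 2 places, marked by capitals, with the minus strand printed. In each peak only the place printed first lies in the matched run. In the pseudogene both places overlapped footprints of replicate 2 by at least 1 bp and none of replicate 1. In Rhox1 both places lay in no footprint of either library.
Rhox2-ps: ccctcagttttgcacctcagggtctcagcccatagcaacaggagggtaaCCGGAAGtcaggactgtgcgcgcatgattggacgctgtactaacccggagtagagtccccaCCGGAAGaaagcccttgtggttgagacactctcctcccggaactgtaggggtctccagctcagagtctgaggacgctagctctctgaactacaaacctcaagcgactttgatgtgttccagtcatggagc
Rhox1: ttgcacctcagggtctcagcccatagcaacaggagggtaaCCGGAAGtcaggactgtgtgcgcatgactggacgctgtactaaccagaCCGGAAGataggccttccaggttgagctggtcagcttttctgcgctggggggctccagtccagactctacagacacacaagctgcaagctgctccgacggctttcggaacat

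The interval between Rhox5 and Rhox6 held 3 peaks shared by the libraries. That at chrX:37816901-37817220, 9850 bp before Rhox6, had 0.538 in replicate 1 and 0.729 in replicate 2. Those at chrX:37811281-37811440 and chrX:37813890-37814051 had 0.333 and 0.374, and 0.285 and 0.351. Their words were all unique. Around the pseudogene Rhox11-ps2 a group of 4 peaks, between 37944322 and 37946720, was listed in replicate 1 alone with 0.177 to 0.290. Between Rhox9 and Rhox10 the gene Btg1-ps2 carried a promoter peak of 0.355 and 0.325, and the gene Btg1-ps1 had none in either library. Between Rhox11 and Rhox12 a peak at chrX:38096273-38096480 had 0.296 and 0.279. That peak had no footprint in replicate 1 and 4 in replicate 2.

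Footprints in the cluster numbered 46 in replicate 1 and 65 in replicate 2 (55.5 ± 13.4, SD, n = 2), of which 19 and 23 overlapped a promoter window (21 ± 2.8, SD, n = 2). Of the cluster footprints, 50% and 40% overlapped one of the other library, against 55.9% and 40.3% on chromosome X. The deposited lists hold 269247 and 349555 footprints and 101172 and 117359 peaks in all, so replicate 2 has more of both.

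Known regulatory letters were counted in the RefSeq promoters (250 bases before to 50 after the start) of the 27 members that matched by symbol, on both strands. The members not matched were Rhox4d, Rhox2f, Rhox6, Rhox7a, Rhox8, Rhox7b and Rhox9. The ETS core CCGGAAG was in 8 of 27, 29.6%, against 8.86% of all 32851 promoters. The 8 were the 7 matched Rhox2 copies, which share this stretch, and Rhox5. The GC box GGGCGG bound by Sp1 was in the 7 matched Rhox4 copies and Rhox12, 29.6% against 35.7%. The GATA core AGATAA was in Rhox13 alone, 3.70% against 11.2%. Neither the homeodomain core TAATTA (5.29% of all promoters) nor the paired palindrome TAATNNNATTA (0.487%) was in any member promoter. A match is a description of letters, not of a bound site, and both homeodomain patterns can share letters.

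The genes on either side of the cluster were mostly open. Of the 5 nearest on each side, 4 had a promoter peak in both libraries, beside 68.7% of all genes and 60.3% of X-linked genes. Ndufa1 and Rnf113a1, which share a peak, had 2.92 in replicate 1 and 3.28 in replicate 2, and Nkap had 2.23 and 1.85. Gm9, the nearest gene before Rhox1, had 0.172 and 0.340. After Rhox13, Zbtb33 had 3.02 and 2.28, Lamp2 3.42 and 3.68, Cul4b 3.10 and 3.14, and Tmem255a 0.323 and 0.287. Akap14 and Atp1b4 had none. Peak density was 77.0 and 85.0 per Mb in the 1 Mb before the cluster and 41.0 and 46.0 in the 1 Mb after it.

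Each of 9 genes reported to regulate Rhox members had a promoter peak in both libraries. The GATA factors Gata4 and Gata1, both made in Sertoli cells, had 2.22 in replicate 1 and 2.06 in replicate 2, and 0.543 and 0.344. Sp1 had 17.2 and 23.5, and Gabpa, an ETS factor, 6.17 and 6.85. The silencing factors were open as well, with Dnmt1 at 9.61 and 8.85, Dnmt3a at 2.28 and 1.89, Dnmt3b at 1.17 and 1.02, Hells at 7.01 and 5.55 and Ehmt2 at 3.03 and 2.29. Of the reported targets of Rhox5, Unc5c had 0.688 and 0.513 and Ins2 0.344 and 0.310. These shares, 9 of 9 and 2 of 2, stand beside 68.7% of all genes.

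Other families of repeated or clustered genes gave a range of shares. None of 7 Obox genes had a promoter peak in either library, 20 of 39 Hox genes had one in both (51.3%), as had 11 of 19 X-linked Mage genes (57.9%) and 6 of 9 Xlr genes (66.7%). Open Mage genes had medians of 0.495 and 0.461 and open Xlr genes 0.565 and 0.864, below the medians of all X-linked genes like those of Rhox.

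The tissue label was set against markers. Of all protein-coding genes, 68.7% were open in both libraries, so many open markers are to be expected in any list. All 7 Sertoli and all 6 germ cell markers were open in both libraries, with summed values of 14.7 and 15.2, and 40.2 and 41.8. Of 5 Leydig cell markers 4 were open, summing to 4.38 and 5.23, with Hsd3b1 at 0. Of 7 epididymis markers, a tissue that also expresses Rhox5, Cst8 was open in both libraries with 0.306 and 0.264 and Lcn5 in replicate 2 alone with 0.464, and Adam7, Crisp1, Lcn8, Lcn9 and Spint4 were at 0. All 4 placenta markers were at 0. The epididymis markers summed to 0.306 in replicate 1 and 0.729 in replicate 2, and their part in the Rhox values was not tested.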

How the data were processed

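DNase-seq of testis was deposited for 2 libraries of 1 group. Per the labels and the deposited text descriptions, each library's peaks, footprints and FDR track were made from its own alignments on mm10, not from pooled libraries. The aligner, the callers, the read length and how repeated reads were placed: none is given in the sources used here. Peak values are a signal deposited by the authors. The p-value column of the deposited footprints is 0.01 throughout, a threshold, so positions alone were used, and the deposited FDR track holds q-values below 0.05. Depth is unknown, since no read totals were used, and no interval was computed.

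GENCODE M21 gave 21911 protein-coding genes, 1 per symbol (27 repeats left out). The longer peak list of each library (FDR below 0.05) was used, and the shorter one (FDR below 0.001) as an alternative. Words of 36 and 75 bases were counted on both strands of 21 chromosomes, copies were matched with BLAST+ 2.17.0, and Python 3.11.15 with numpy 2.4.6 and numba 0.67.0 did the rest. The window and word-counting steps were tested on simulated data. Every member with a peak, 5 neighbours a side, reported regulators and targets, and the marker lists were named; 1 listed gene is not reported here. The members and lists were chosen with earlier results of these data known, and the Rhox2 stretches, pseudogenes and RefSeq starts after their values were seen. Alternatives were shorter lists, higher values, other windows, starts and overlaps, and single libraries.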

Additional observations from a re-analysis of the deposited data

Results flagged for a closer look

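A pseudogene of the family outside the cluster carried a peak in data that the counts above do not use. Rhox7-ps1 lies beyond Rhox13, chrX:38296868-38306028, and has a peak at chrX:38300181-38300380 with 0.344 in replicate 1 and 0.4001 in replicate 2. In steps these were 64 and 106, above a floor of 3 steps. Every listed peak of the cluster also exceeds that floor, the lowest having 22 steps in replicate 1 and 21 in replicate 2. The peak held footprints in both libraries, 2 in replicate 1 and 3 in replicate 2 over the pseudogene. Its sequence matched Rhox7a over 199 bases at 99.5% identity, at an annotated start of that gene, and Rhox7b at 99.0%, and neither of these had a peak in either library. Of its 36-base words 22.4% occurred once in the genome. The part of read placement in this difference was not tested.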

How the results depend on the processing

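No paired analysis was possible because the study has 1 group. The 8 members open in both libraries were 6 with the shorter peak list (without Rhox2b and Rhox2g), 7 with windows of 500 bp (without Rhox11), 9 with windows of 2500 bp (with Rhox9) and 8 with the 5′ end only, with midpoints inside the window or with RefSeq starts added, the last chosen after seeing the data. Peaks at or above the median of their library left 3, Rhox8, Rhox11 and Rhox13, both for both libraries and for at least 1. The 12 members open in at least 1 library were 6 with the shorter list. The shares over all genes and over X-linked genes were not computed with these other lists, cuts, windows and starts. Whether the family changed more than genes in general was thus not tested. The 17.5 peaks outside windows became 8.5 with the shorter list and 3.5 with the higher peaks, the 55.5 cluster footprints 35.5 and 24.5, and the 21 window footprints 12 with the higher peaks. Single libraries gave 9 to 11 open members, 15 to 20 outside peaks, 46 to 65 cluster footprints and 19 to 23 window footprints. With words of 75 bases the median unique share of the members' windows was 44.8% in place of 24.3%. The count of weak peaks is thus limited by the FDR cut of the lists.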

Other observations

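Of the peaks that share sequence, some had a counterpart with none. A stretch of 100 bases beside Rhox2-ps, chrX:37683752-37683851, had a peak in replicate 2 alone with 0.242. Its counterpart inside Rhox1, at 99.0% identity, had none in either library. Of the 36-base words of the stretch beside Rhox2-ps, 6.15% occurred once in the genome. The peak of Rhox4e matched Rhox4a, Rhox4d and Rhox4f, which had none, and Rhox4g most closely, at up to 98.1% identity, which had 0.156 in the same library, replicate 1. Of the words of the Rhox4e peak, 1.41% occurred once.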
